A study of Mus musculus with 147 samples.

Results

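Hesx1, Tgif1, Sp5 and Ascl2 are 4 genes for transcription factors that were described together in male germ cells of the mouse fetus between their arrival in the gonad and mitotic arrest. The study named them, with Hes1, as top transcription factors specific for its transitional germ cells, a state between dividing and arrested cells. It did so from these same cells, so a rise and a fall around that state were partly set by the choice. The genes were chosen by name, and they are 4 of the 31053 genes in the table of unique molecular identifiers (UMIs, tags that count each captured transcript once). That table holds single cells from E6.5 (embryonic day) to the adult, germ cells along with other cells of the embryo, gonad and testis. Per the study's methods, male embryos and gonads were chosen by PCR at E10.5 and E11.5. No such choice is described for earlier days, and for some E10.5 cells no sex is given. Germ cells of the fetus were gated as cells positive for the BVSC reporter, a pair of transgenes in which mVenus is driven by Blimp1 (Prdm1) sequences and ECFP by Stella (Dppa3) sequences, and from E14.5 the gate was ECFP alone. The wild-type embryos came from C57BL/6 females mated with homozygous BVSC males. The Helq null embryos carried BVSC too and traced back to 1 embryonic stem cell clone, edited with Cas9 in the first exon of Helq, a gene for a DNA helicase. The levels below come from 2097 BVSC cells, 1331 of them wild type in 16 pools from E11.5 to E18.5 and 766 Helq null in 9 pools from E11.5 to E15.5 and at E18.5. A pool is all cells of 1 time-point, genotype and replicate. Wild-type cells collected from PND0 (postnatal day) to the adult were picked by shape, and 6545 of the 7352 that passed the cell filter carried more germ cell than somatic marker counts and were taken as germ cells, in 30 pools. Each level is a count scaled to 1000000 UMIs (CPM) of the summed UMIs of a pool. Per the study's methods the replicates of a time-point are biologically independent, with several embryos or gonads behind a fetal replicate and a single one behind a postnatal replicate. Separate litters are not mentioned.

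Hesx1 is a homeodomain repressor known from the forebrain and the pituitary. Tgif1 is a homeodomain protein of the TALE class that binds Smad proteins and holds down the response to Nodal and other TGF-beta ligands. Sp5 is a zinc finger protein of the Sp family and a direct target of Wnt signalling through beta-catenin. Ascl2 is a basic helix-loop-helix protein of the achaete-scute family, needed in the placenta and used by stem cells of the gut, where it is also a Wnt target. Male germ cells divide after they settle in the fetal testis, lose the expression of pluripotency genes, stop dividing and then take up DNA methylation again before birth.

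The regions just upstream of 3 of the genes are shown because the genes moved together in the fetus, and because motifs of the factors that read Wnt signals, or that the proteins themselves bind, could be looked for in them. The windows were taken from RefSeq on GRCm38.p6 and run from 250 bases before to 50 bases after an annotated start. All 4 genes matched the RefSeq table, with 8 windows in total, 5 of which belonged to Tgif1 and are not printed. Of these 5, 2 held CTTTGA (2 copies and 1), 2 held GGGCGG (5 copies and 1), 3 held CAGCTG and 2 held CTGTCA. The Sp5 window (chr2:70474673-70474972, plus strand) is shown with its 2 copies of the TCF/LEF core CTTTGA in capitals, the Ascl2 window (chr7:142969215-142969514, minus strand) with its 1 GC box, GGGCGG, in capitals, and the Hesx1 window (chr14:27000112-27000411, plus strand) held none of the motifs searched.
Sp5: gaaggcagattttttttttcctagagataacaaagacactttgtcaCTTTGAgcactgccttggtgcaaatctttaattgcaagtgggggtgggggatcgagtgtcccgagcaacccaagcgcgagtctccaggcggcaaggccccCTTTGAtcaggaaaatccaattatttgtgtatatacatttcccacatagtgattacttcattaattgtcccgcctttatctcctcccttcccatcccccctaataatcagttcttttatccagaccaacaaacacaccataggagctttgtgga
Ascl2: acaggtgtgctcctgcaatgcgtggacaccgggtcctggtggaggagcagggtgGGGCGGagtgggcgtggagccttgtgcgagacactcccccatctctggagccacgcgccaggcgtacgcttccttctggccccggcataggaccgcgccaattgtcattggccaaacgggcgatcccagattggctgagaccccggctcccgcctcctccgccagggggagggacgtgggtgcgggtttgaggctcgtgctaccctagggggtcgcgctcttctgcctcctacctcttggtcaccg
Hesx1: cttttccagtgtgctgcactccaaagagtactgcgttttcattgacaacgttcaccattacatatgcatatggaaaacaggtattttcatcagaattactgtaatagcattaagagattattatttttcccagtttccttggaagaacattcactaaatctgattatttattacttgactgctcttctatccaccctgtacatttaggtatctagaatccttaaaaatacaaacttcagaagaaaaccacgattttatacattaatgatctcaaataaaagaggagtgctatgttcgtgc
On both strands, CTTTGA was found in 16% (5257 of 32851) of windows of the same length, GGGCGG in 35.7%, the E-box CAGCTG in 16.3% and the TGIF core CTGTCA in 19.2%. The GC content was 45% for Sp5, 67% for Ascl2 and 33.7% for Hesx1, against a median of 52.7% over all windows. A match describes letters in the window only. In GENCODE, on the same assembly, Hesx1 spans chr14:26994416-27002329 on the plus strand, so its RefSeq start lies inside that gene. Tgif1 spans chr17:70844205-70853546 on the minus strand, Sp5 chr2:70474923-70477729 on the plus strand, and Ascl2 chr7:142966829-142969264 on the minus strand.

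The gate was checked against markers before the genes were read. In the fetal BVSC pools, the summed level of 18 germ cell markers was between 2387 and 5372 CPM, against 82.5 to 1063 CPM in the pools of BVSC-negative cells from the same gonads (900 cells). The fetal BVSC pools held 15892008 to 38338265 UMIs each. Among the wild-type BVSC pools the pool at E17.5, replicate 1, stood apart: 65.3% of its cells carried more germ cell than somatic marker counts, against 95.8% to 100% of the cells of every other BVSC pool of either genotype. The Helq null pool at E14.5, replicate 2, also differed from its partner in genes of the germ cell state. The cofactor of DNA methylation Dnmt3l was at 87.7 CPM there against 10.3 CPM, and the proliferation marker Mki67 at 34.9 against 185.3 CPM. Partners of other days were apart as well. In cells with more germ cell than somatic marker counts, Nanos2, a repressor of meiosis, was at 52.7 and 3.05 CPM in wild-type E13.5. It was at 7.5 and 71.7 CPM in null E13.5 and at 38.8 and 96.3 CPM in wild-type E15.5. In null E14.5 it was at 54.9 and 72.5 CPM. Helq itself checks no label, since tags are read from the end of the transcript and the edit is in the first exon. It was at 15.1 to 27.7 CPM in wild-type pools and 15.9 to 39.6 CPM in Helq null pools.

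Hesx1 went from almost no tags to the highest level of its course within 3 days in wild-type germ cells. At E11.5 the pools were at 0.65 and 0.97 CPM, at E12.5 at 21.8 and 38.2, at E13.5 at 185.2 and 108.01, and at E14.5 at 227 and 231 CPM. The E15.5 pools were far apart, at 45.5 and 135.7 CPM, and by E16.5 the level was 26.3 and 28.6 CPM. It was 44.6 and 53.9 CPM at E17.5 and 51.02 and 38.4 CPM at E18.5. In cells of the first E17.5 pool with more germ cell than somatic marker counts, Hesx1 was at 56.2 CPM. All 4 pools of E13.5 and E14.5 lay above every pool up to E12.5 and from E16.5 on, while the higher E15.5 pool overlapped the E13.5 pools.

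Tgif1 was present throughout and also rose and then fell. Its level was 22.1 and 21.4 CPM at E11.5, 46.04 and 51.9 at E12.5, 155.1 and 97.8 at E13.5, and 180 and 203 CPM at E14.5. It was 65.7 and 126.3 CPM at E15.5 and then 10.95 and 17.8 CPM at E16.5, below both E11.5 pools. At E17.5 the pools differed, at 48.2 and 15.7 CPM. In cells of the first of them with more germ cell than somatic marker counts, Tgif1 was at 20.8 CPM. BVSC-negative cells of the same pool held Tgif1 at 238 CPM. At E18.5 the level was 25.8 and 49.7 CPM.

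Sp5 rose over the same days. At E11.5 it was at 1.86 and 0.93 CPM, at E12.5 at 6.2 and 13.9, at E13.5 at 43.5 and 22.7, and at E14.5 at 52.7 and 59.1 CPM. It was at 16.01 and 22.6 CPM at E15.5 and at 8.9 and 4.4 CPM at E16.5. In the last days before birth it stayed between 5.9 and 16.2 CPM. In cells of E17.5 replicate 1 with more germ cell than somatic marker counts, Sp5 was at 7.4 CPM. The 2 E14.5 pools were the highest of the 16, above both E13.5 pools.

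Ascl2 rose with the others, and its pools of E18.5 overlapped those of E13.5 and E14.5. The pools were at 0.57 and 1.41 CPM at E11.5, 11.6 and 8.5 at E12.5, 39.8 and 27.3 at E13.5, and 36.9 and 34.01 CPM at E14.5. At E15.5 it was at 20.6 and 16.3 CPM and at E16.5 at 20.9 and 21.7 CPM. It was at 23.2 and 20.7 CPM at E17.5 and at 32.5 and 42.9 CPM at E18.5, where the higher pool was above every other wild-type pool. In cells of the first E17.5 pool with more germ cell than somatic marker counts, Ascl2 was at 29.2 CPM. Averaged over the 2 pools of a time-point, the levels at E13.5, E14.5 and E18.5 were 33.5 ± 8.9, 35.5 ± 2.1 and 37.7 ± 7.4 CPM (SD, n = 2), which overlap.

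**Figure D1:**
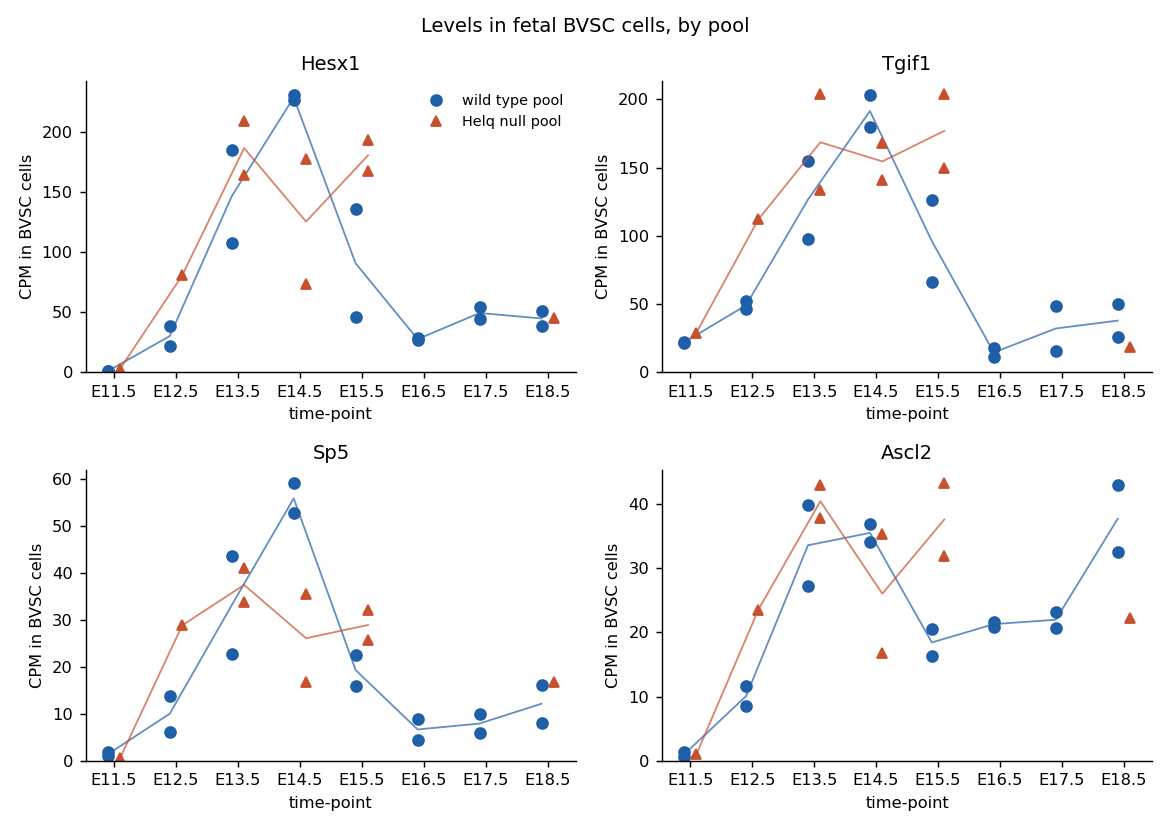
CPM (y axis, linear from 0) of each gene in BVSC cells by time-point, with 1 point per pool, circles for wild type and triangles for Helq null, and lines through the means. In wild type, Hesx1, Tgif1 and Sp5 peak at E14.5 and are low at E16.5, and Ascl2 is at 32.5 and 42.9 CPM at E18.5.

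Each step was tested across all 23281 genes that passed the filter on low counts, with the 16 wild-type pools in 1 edgeR quasi-likelihood fit. From E11.5 to E12.5 1 of the 4 genes passed a false discovery rate of 0.05, against 0.163% of all genes. This was Hesx1, with a log2 fold change of 5.23 ± 1.00 (SE, adjusted p = 0.0267 by edgeR). The call was lost when either E11.5 pool was left out (adjusted p = 0.272 without replicate 1 and 0.330 without replicate 2) or when E12.5 replicate 2 was (0.400). With DESeq2 and with the earlier edgeR fit, Ascl2 and Sp5 passed as well, with adjusted p from 7.33e-12 to 0.0427. Between E11.5 to E12.5 and E13.5 all 4 rose, against 3.59% of genes called. The study had picked the 4 genes from these same cells for their level between division and arrest. Such shares are therefore no independent support, here or for the fall. The log2 fold change was 4.99 ± 0.47 for Hesx1 (adjusted p = 7.34e-06), 3.54 ± 0.37 for Ascl2 (2.40e-05), 3.25 ± 0.44 for Sp5 (2.81e-04) and 2.06 ± 0.32 for Tgif1 (9.21e-04). Without E13.5 replicate 1 the adjusted p was 0.0652 for Sp5 and 0.120 for Tgif1, so these 2 calls rest on that pool. From E13.5 to E14.5 none of the 4 passed in edgeR, against 0.906% of genes, none had an unadjusted p below 0.05, and none passed in DESeq2. Sp5 came closest, with a log2 fold change of 0.58 ± 0.31 and an adjusted p of 0.512.

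The fall came next. Against E14.5, the mean of E15.5 and E16.5 was lower for all 4 genes, where 31.5% of all genes passed in either direction. The log2 fold change was -2.63 ± 0.31 for Tgif1 (adjusted p = 4.76e-06), -2.60 ± 0.31 for Sp5 (4.95e-06), -2.47 ± 0.30 for Hesx1 (4.43e-06) and -1.12 ± 0.24 for Ascl2 (0.00122). These 4 calls held when any 1 of the 16 pools was left out, with adjusted p up to 0.0319 for Ascl2 and 2.42e-04 for the others. With size factors of the relative log expression (RLE) kind, the log2 fold changes of the 4 genes moved up by a median of 0.23. This is less than the size of any of the 4 changes. Already at E15.5 alone all 4 were lower than at E14.5, against 13% of genes, with log2 fold changes of -1.52 ± 0.34 for Hesx1, -1.18 ± 0.33 for Tgif1, -1.75 ± 0.34 for Sp5 and -1.13 ± 0.28 for Ascl2 (adjusted p from 0.00223 to 0.0229). That step rested on 1 pool: without E15.5 replicate 1 the adjusted p was 0.196, 0.503, 0.145 and 0.173 in the same order. Hesx1 was then at -0.83 and Tgif1 at -0.67, and without E15.5 replicate 2 they were at -2.62 and -1.83. Tgif1 and Ascl2 also missed the threshold without E14.5 replicate 1 (0.0904 and 0.104) or replicate 2 (0.136 and 0.0602). Tgif1 did so with DESeq2 (0.118), and all but Hesx1 with the earlier edgeR fit (0.0608 to 0.127).

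Between E15.5 and E16.5 Hesx1, Tgif1 and Sp5 were lower again, 3 of 4 against 9.33% of all genes, while Ascl2 was not called. The log2 fold change was -2.91 ± 0.46 for Tgif1 (adjusted p = 0.00125), -1.90 ± 0.42 for Hesx1 (0.00932) and -1.71 ± 0.51 for Sp5 (0.0401). For Ascl2 it was 0.02 ± 0.32 (0.982). The Tgif1 call held without any 1 pool, from -3.41 without E15.5 replicate 1 to -2.25 without E15.5 replicate 2. Hesx1 was at -2.60 without E15.5 replicate 1, and lost the call without E15.5 replicate 2 (-0.80, adjusted p = 0.331) or E16.5 replicate 1 (0.0877). Sp5 lost it without E15.5 replicate 2 (0.325), E16.5 replicate 1 (0.110) or E16.5 replicate 2 (0.253), with RLE size factors (0.0532) and with the earlier edgeR fit (0.0824). Whether the step of Ascl2 differs from that of the other genes was not tested. From E15.5 and E16.5 to E17.5 and E18.5 none of the 4 passed in edgeR, although 32.3% of all genes did, and none had an unadjusted p below 0.05. The log2 fold changes ran from -0.51 ± 0.39 for Sp5 to 0.23 ± 0.22 for Ascl2. Hesx1 passed without E15.5 replicate 1 (-0.75, adjusted p = 0.0136), and without E15.5 replicate 2 it was at 0.15 (0.716). Tgif1 passed when only cells with more germ cell than somatic marker counts were summed (-0.83, adjusted p = 0.0496). The earlier side of this comparison averages E15.5, when levels were still falling, with E16.5. Hesx1 was higher in every pool of E17.5 and E18.5 than in both pools of E16.5, and for the other genes these pools overlapped. E16.5 alone was not compared with the later days, so a change after E16.5 was not tested.

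The share of cells with at least 1 UMI, with each cell thinned to 50000 UMIs, showed how far these levels were spread over the cells. Cells with fewer UMIs were left out, 76 of the BVSC cells and 94 of the BVSC-negative cells. Hesx1 was found in 2.6% and 2.9% of wild-type BVSC cells at E11.5, in 92.5% and 97.9% at E14.5 and in 44.4% and 54.4% at E16.5. Tgif1 was found in 38.5% and 41.4% of cells at E11.5, in 96.8% and 100% at E14.5 and in 26.7% and 33.3% at E16.5. Sp5 reached 72.0% in both E14.5 pools from 2.6% and 2.9% at E11.5, and Ascl2 52.7% and 37.6% from the same 2.6% and 2.9%. At E16.5 Ascl2 was still found in 41.1% and 43.3% of cells. The BVSC-negative cells gave the background. Hesx1 was found in 0% to 54.8% of them (median 5.3% over 25 pools) and Ascl2 in 0% to 16.7% (median 2.3%). The highest Hesx1 value, 54.8% with a level of 65.6 CPM, was in the Helq null pool of E15.5, replicate 1, where 14.3% of the BVSC-negative cells carried more germ cell than somatic marker counts. Tgif1 and Sp5 were expressed by the other cells of the gonad too. BVSC-negative cells held Tgif1 in 31.6% to 94.4% of cells, at 39.9 to 238 CPM, and Sp5 in 0% to 45.2%, so no share of these 2 genes can be read against a background there. At E16.5 Sp5 was found in 20% and 10% of wild-type BVSC cells and in 38.6% and 36.96% of BVSC-negative cells. The median UMIs per cell before thinning were 223436 to 382885 in wild-type BVSC pools and 89004 to 325019 in BVSC-negative pools. Thinning to 20000 UMIs, or not at all, changed the shares but left E14.5 with the highest of these 3 shares for Hesx1 and Tgif1.

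**Figure D2:**
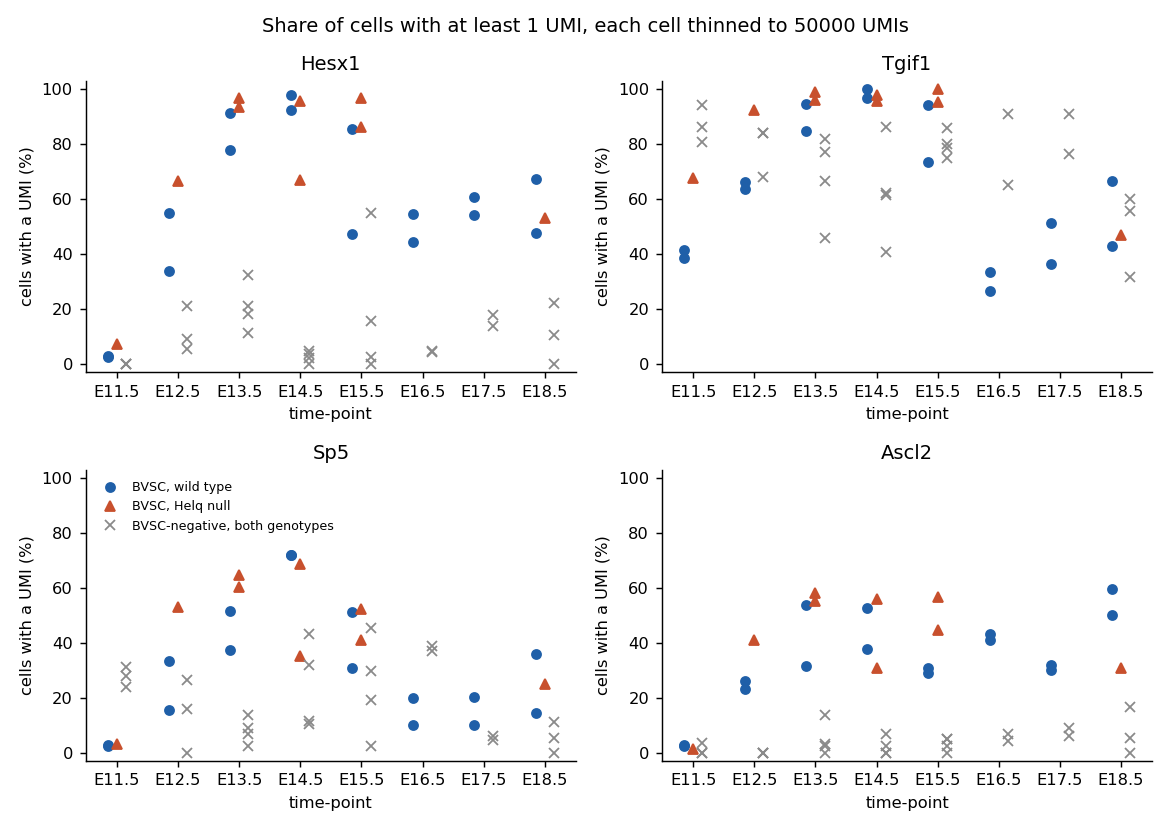
Share of cells with at least 1 UMI (y axis, percent) by time-point, each cell thinned to 50000 UMIs, with 1 point per pool, circles for wild-type BVSC cells, triangles for Helq null BVSC cells and crosses for BVSC-negative cells of both genotypes. The E14.5 wild-type shares are 92.5% and 97.9% for Hesx1 with the crosses of that day at 0% to 4.5%, whereas for Tgif1 the crosses lie between 31.6% and 94.4% over all time-points.

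In the 6 wild-type pools from E13.5 to E15.5, 86 to 93 cells per pool at 50000 UMIs, all 4 genes were found in 4.4% to 39.8% of the cells of a pool (median 23.2%) and none of them in 0% to 12.1%. The product of the shares of the 4 single genes was 3.29% to 33.97% (median 17.95%), and it lay below the share with all 4 in each of the 6 pools. The highest share with all 4, 39.8%, was in an E14.5 pool and the lowest, 4.4%, in E15.5 replicate 1. Across the cells of a pool, Hesx1 and Tgif1 counts had a Spearman rho of 0.14 to 0.45, Hesx1 and Ascl2 one of -0.07 to 0.38 and Tgif1 and Ascl2 one of -0.05 to 0.34, weak relations in sparse counts. Against Dnmt3l, which was without tags in the wild-type pools of E13.5, Hesx1 had a rho of -0.62 to -0.19 in the 4 pools of E14.5 and E15.5, Tgif1 one of -0.325 to -0.17, Sp5 one of -0.33 to -0.22 and Ascl2 one of -0.34 to 0.07. These cells share a library and a depth within each pool. In Helq null pools of E13.5 to E15.5 the product of the 4 shares did not always lie below the share with all 4. It lay above it in E13.5 replicate 2 (36.11% against 35.16%) and E14.5 replicate 2 (6.93% against 3.30%), and below it in the others.

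Genes with the most similar course over the 16 wild-type pools were listed by Pearson's r of log2(CPM + 1) among genes with a mean of at least 10 CPM. The pools share time-points, so the values are a description. Sp5 and Hesx1 were close to each other (r = 0.93), and Hesx1 was the gene most like Sp5 of all those listed. The next for Sp5 were Wnt3, a Wnt ligand (0.93), and Dll3, a protein of the Delta family (0.90). For Hesx1 they were Dapk2, a kinase (0.94), Tnnt1, a troponin (0.94), and Gnb4, a G protein subunit (0.94). For Tgif1 they were Ip6k2, an inositol phosphate kinase (0.95), Cthrc1, a secreted protein (0.94), and Rbbp7, a histone binding protein (0.93). For Ascl2 they were Dnaic1, a dynein chain of cilia (0.96), Hes1, a repressor that Notch induces (0.93), and Smagp, a membrane protein (0.92). Tgif1 and Ascl2 were the least alike pair of the 4 (r = 0.43).

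Position along the gonad was examined from E13.5 to E16.5, when each gonad had been cut into distal, central and proximal pieces by its distance from the mesonephros. Over 14 pools of both genotypes, none of the 4 genes differed between distal and proximal cells at a false discovery rate of 0.05 in edgeR with the pool as a block, against 0.0444% of all genes. None had an unadjusted p below 0.05 either, and none passed with DESeq2. Hesx1 was at 151 ± 78 CPM in distal and 140 ± 72 CPM in proximal pieces (SD, n = 14), with a log2 fold change of 0.11 ± 0.08 (SE, adjusted p = 0.851). Tgif1 was at 138.1 ± 69 and 131.3 ± 62 CPM, and Sp5 at 31.01 ± 18.3 and 32.9 ± 20.2 CPM. Ascl2 was at 29.2 ± 12.2 CPM in distal and 31.9 ± 11.8 CPM in proximal pieces, with a log2 fold change of -0.15 ± 0.15 (adjusted p = 0.912). Its distal level was the higher in 6 of 6 Helq null pools (mean 37.3 against 28.9 CPM) and in 3 of 8 wild-type pools (23.1 against 34.1 CPM). In wild-type pools alone the log2 fold change of Ascl2 was -0.63 ± 0.21 (SE), with an unadjusted p of 0.0057 and an adjusted p of 0.674 by edgeR. Whether the genotypes differ in this was not tested. The share of cells with a UMI, distal minus proximal, was -1.04 percentage points for Hesx1 (exact permutation test by sign flip, 2-sided, p = 0.640), -2.59 for Tgif1 (p = 0.438 by the same exact test), -2.61 for Sp5 (exact p = 0.459) and -3.33 for Ascl2 (exact p = 0.473). With 4 such tests no adjusted value would be smaller.

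**Figure D3:**
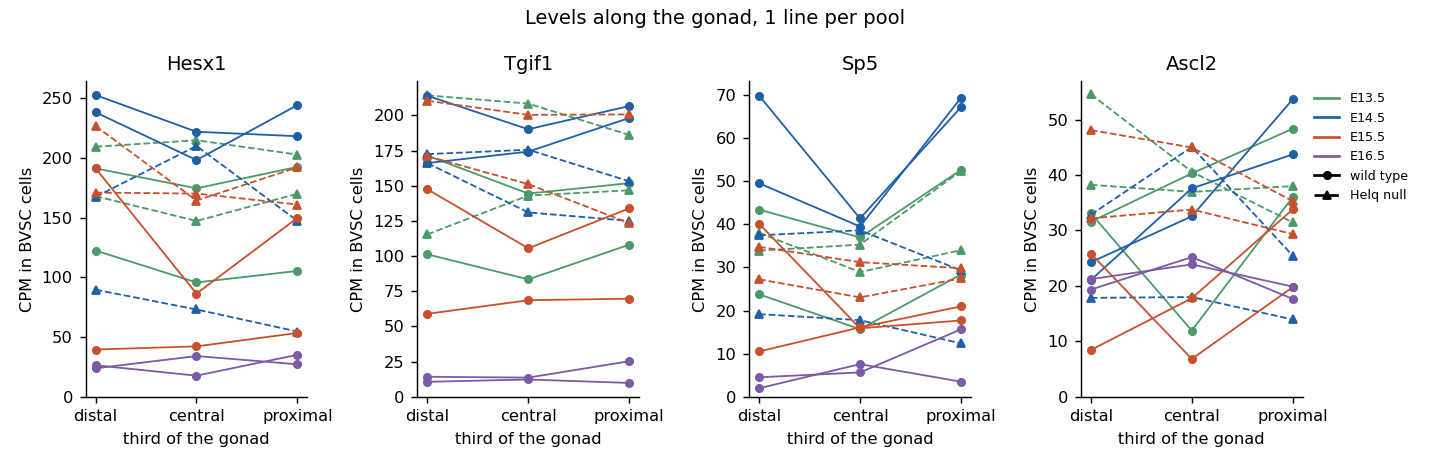
CPM (y axis, linear from 0) of each gene in the distal, central and proximal pieces of the gonad, with 1 line per pool, coloured by time-point, solid for wild type and dashed for Helq null. Pools of 1 time-point lie far apart, with distal Hesx1 at E15.5 between 39.6 and 227 CPM, and no gene runs one way along the gonad in all pools; for Hesx1 the means are 151, 132.3 and 140 CPM from distal to proximal.

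In Helq null germ cells Hesx1, Sp5 and Ascl2 were at their lowest at E11.5, as in wild type, and all 4 genes were above the wild-type pools at E15.5. Hesx1 was at 2.9 CPM in the single null pool of E11.5 and 80.6 CPM in that of E12.5, at 164 and 209 at E13.5, 178 and 73.4 at E14.5, and 194 and 168 CPM at E15.5. The wild-type pools of E15.5 were at 45.5 and 135.7 CPM. Tgif1 in the null was at 28.96 at E11.5, then 111.999, then 133.3 and 204, then 168 and 140.99, and at E15.5 204 and 150 CPM, where wild type was at 65.7 and 126.3 CPM. Sp5 went from 0.62 to 28.8 CPM, then to 41.1 and 33.8, 35.5 and 16.7, and 25.7 and 32.1 CPM, against 16.01 and 22.6 CPM in wild type at E15.5. Ascl2 went from 1.0 to 23.5 CPM, then to 37.9 and 42.95, 35.2 and 16.8, and 31.9 and 43.2 CPM, against 20.6 and 16.3 CPM in wild type. For each gene, both null pools of E15.5 lay above both wild-type pools, and the null pool of E12.5 lay above both wild-type pools of E12.5. At E13.5 the genotypes overlapped for every gene. At E14.5 the null pools were the lower for Hesx1, Tgif1 and Sp5, and for Ascl2 the genotypes overlapped.

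These differences did not pass over all genes. The genotypes came from different crosses, so loss of Helq and a difference of line cannot be told apart here or below. From E11.5 to E15.5 together, none of the 4 genes was called between the genotypes in edgeR, against 2.76% of 18761 genes, and Tgif1 alone had an unadjusted p below 0.05 (log2 fold change 0.42 ± 0.19, adjusted p = 0.263). At E13.5 alone none was called, against 0.0591%, and none had an unadjusted p below 0.05. At E14.5 none was called, against 0.295%, and 2 had an unadjusted p below 0.05, Hesx1 (-0.86 ± 0.36, adjusted p = 0.423) and Sp5 (-1.05 ± 0.33, 0.240). At E15.5 none was called, against 4.66%, and 3 had an unadjusted p below 0.05: Ascl2 (1.10 ± 0.34, adjusted p = 0.0636), Tgif1 (0.97 ± 0.31, 0.0713) and Hesx1 (1.08 ± 0.38, 0.103). Sp5 was at 0.69 ± 0.39 (0.341). DESeq2 and the earlier edgeR fit called none of the 4 in these comparisons. The E15.5 result turned on single pools. Without wild-type E15.5 replicate 2, Hesx1 was at 2.17 (adjusted p = 0.00367) and Tgif1 at 1.61 (0.00703). Hesx1, Tgif1 and Ascl2 also crossed the threshold when either null pool of E14.5 was left out, with the E15.5 pools unchanged. Tgif1 also passed with no filter on low counts (adjusted p = 0.0456). Without wild-type E15.5 replicate 1 the log2 fold change was 0.39 for Hesx1 and 0.47 for Tgif1.

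Whether the effect of the genotype at E15.5 differed from that at E13.5 and E14.5 was tested as an interaction, which was added after seeing the data. None of the 4 genes passed in edgeR, against 0.00909% of genes, although all 4 had an unadjusted p below 0.05. The difference of the log2 fold changes was 1.39 ± 0.46 for Hesx1 (adjusted p = 0.164), 1.23 ± 0.41 for Ascl2 (0.167), 1.19 ± 0.46 for Sp5 (0.234) and 0.98 ± 0.37 for Tgif1 (0.226). Without null E14.5 replicate 1 it passed for Hesx1 (1.78, adjusted p = 0.0167), Ascl2 (1.54, 0.0229) and Sp5 (1.52, 0.0470). Without wild-type E15.5 replicate 2 it passed for Hesx1 (2.50, 0.0148) and Tgif1 (1.63, 0.0310). At E18.5 the single null pool was at 45.1 CPM for Hesx1, 18.7 for Tgif1, 16.7 for Sp5 and 22.3 for Ascl2. The wild-type pools of that day were at 51.02 and 38.4, 25.8 and 49.7, 16.2 and 8.1, and 32.5 and 42.9 CPM. Hesx1 thus lay between the wild-type pools, Tgif1 and Ascl2 below both and Sp5 above both. With 1 null pool the difference at E18.5 has no replicate check.

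The pathways around the 4 genes were read from lists of their known partners. Of 18 genes of the Nodal, activin and TGF-beta pathway, 10 were lower and none higher at E15.5 and E16.5 than at E14.5 in wild type, with a median log2 fold change of -0.97 against 0.34 over all genes, of which 31.5% were called in either direction. The secreted Nodal inhibitors Lefty1 (-4.83 ± 0.28) and Lefty2 (-4.32 ± 0.34) and the ligand Nodal (-3.97 ± 0.39) fell. Lefty1 was already lower at E14.5 than at E13.5 (-1.07 ± 0.22, adjusted p = 0.0217), as was Lefty2 (-1.41 ± 0.27, 0.0133), whereas none of the 4 transcription factors was. Nodal was at 48.3 and 46.8 CPM at E14.5, 6.4 and 7.8 at E15.5, and 1.1 and 2.7 CPM at E16.5. Of 8 genes of the Notch pathway 4 were lower and none higher (median -0.45), among them Hes1 (-1.31 ± 0.20) and Hey1 (-1.24 ± 0.34). At E13.5, against E11.5 and E12.5, 2 of the 8 Notch genes were higher and 1 lower, where 3.59% of all genes were called. Hes1 was among the higher ones (2.38 ± 0.25, adjusted p = 2.40e-05 by edgeR). Of 16 Wnt targets 3 were higher and none lower, 18.75% against the 31.5% of all genes (median 0.14): Rnf43, a ligase that removes Wnt receptors (5.17 ± 1.72), T, the mesoderm factor brachyury (3.33 ± 0.58), and Tcf7 (0.68 ± 0.22). The other 13 were not called. Axin2, the usual readout of Wnt signalling, was at 19.6 and 16.7 CPM at E14.5 and 18.47 and 10.8 CPM at E15.5, and its E16.5 pools were at 18.31 and 25.8 CPM.

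Of 17 relatives and partners of the 4 proteins, 2 were higher and 3 lower at E15.5 and E16.5 than at E14.5, 29.4% against 31.5% of all genes, so the list was called about as often as other genes. Among the corepressors of the TLE family, which HESX1 and HES proteins recruit, Tle4 was lower (-1.81 ± 0.20) and Tle2 higher (1.91 ± 0.51). Among genes of the germ cell state 8 of 14 were lower and 3 higher. The pluripotency genes Sox2 (-4.11 ± 0.47) and Nanog (-3.07 ± 0.29) and the proliferation marker Mki67 (-2.92 ± 0.34) fell, and Dnmt3l rose (3.26 ± 0.28). Dnmt3l went from 35.7 and 17.8 CPM at E14.5 to 269 and 156 CPM at E15.5 and 463 and 448 CPM at E16.5. By E13.5, when the 4 factors were high, 4 of the 14 genes of the germ cell state list were higher and 2 lower than at E11.5 and E12.5, against 3.59% of all genes. Nanos2, a repressor of meiosis, had risen (12.88 ± 2.24, a fitted value from E11.5 and E12.5 pools listed at 0), and so had Dazl (1.05 ± 0.16), a germ cell RNA binding protein. Wee1, a kinase that restrains entry into mitosis, was lower (-1.02 ± 0.28, adjusted p = 0.0459). From E15.5 and E16.5 to E17.5 and E18.5, when none of the 4 factors was called, 6 of 16 Wnt targets were higher and 1 lower, among them the homeobox gene Cdx1 (1.44 ± 0.37), against 32.3% of all genes. Somatic marker genes held 0.0822% to 0.217% of the UMIs in these later pools, against 0.0236% to 0.1001% at E15.5 and E16.5, and their part in these values was not tested.

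In Helq null germ cells at E15.5, 3 of 18 genes of the Nodal list were higher than in wild type and none lower, against 4.66% of all genes. These were Tdgf1, the Nodal coreceptor (2.97 ± 0.78, adjusted p = 0.0334), Nodal (2.33 ± 0.54, 0.0183) and Smad2 (0.92 ± 0.26, 0.0435). Nodal was at 30.04 and 36.3 CPM in the null, where wild type was at 6.4 and 7.8 CPM at E15.5 and 48.3 and 46.8 CPM at E14.5. Of the germ cell state list, Wee1 was higher (2.30 ± 0.51, adjusted p = 0.0152 by edgeR). Lower were Dnmt3l (-2.01 ± 0.56, 0.0482, close to the threshold) and Tdrd9 (-2.17 ± 0.40, 0.00412), a helicase of the piRNA pathway. Whether calls of list genes hold with a pool left out was not examined. Dnmt3l was at 32.96 and 66.5 CPM in the null at E15.5, against 269 and 156 CPM in wild type. Tle4 was the single relative or partner called (1.14 ± 0.32), and of 8 Notch genes none was. Among Wnt targets Myc was higher (2.33 ± 0.59) and Lef1 lower (-1.002 ± 0.23).

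**Figure D4:**
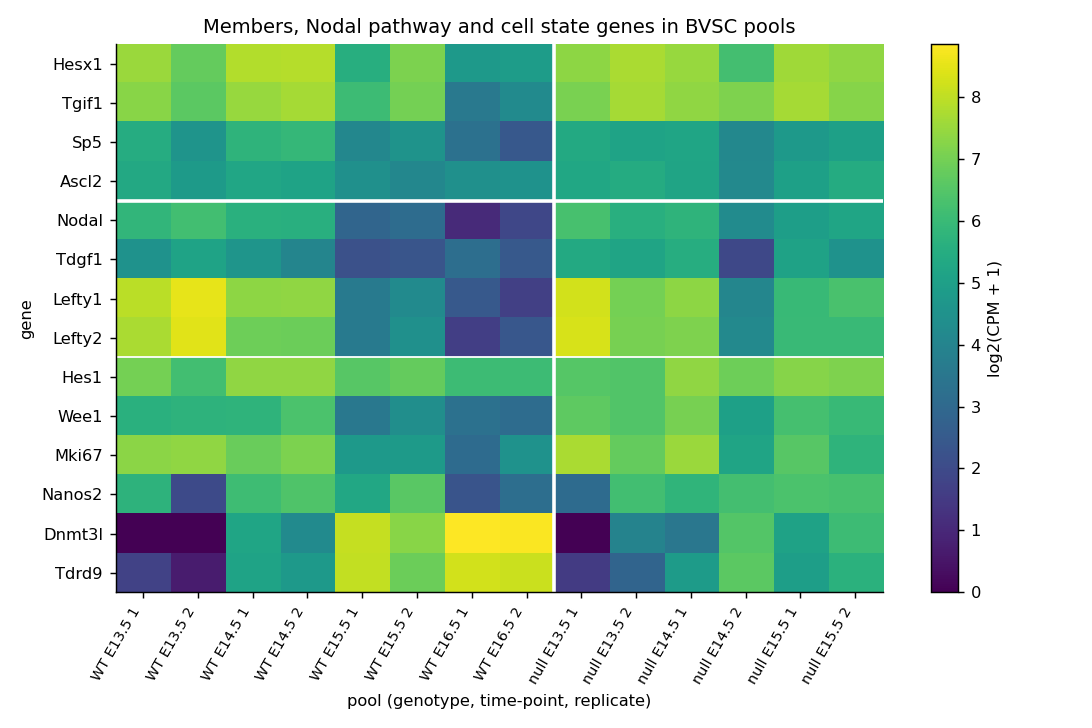
Heat map of log2(CPM + 1), colour scale at right, for the 4 genes (top rows), 4 genes of the Nodal pathway (middle) and 6 genes of cell state (bottom) in BVSC pools, with wild-type pools of E13.5 to E16.5 left of the white line and Helq null pools of E13.5 to E15.5 right of it. Nodal, Lefty1 and Lefty2 are dark in both wild-type E15.5 pools and brighter in both null E15.5 pools (Nodal 6.4 and 7.8 against 30.04 and 36.3 CPM), and the null E14.5 pool of replicate 2 is dark for Lefty1 (15.6 CPM). Between the genotypes at E15.5 Nodal was called, and Lefty1 and Lefty2 were not.

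After birth the 4 genes went separate ways in wild-type germ cells. Hesx1 fell within days of birth. It was at 35.1 and 48.1 CPM at PND0, 14.97 and 30.4 at PND1 and 9.2 and 3.7 CPM at PND2. From PND3 to PND8 it was at 1.6 to 6.5 CPM in 12 pools (median 3.1), and from PND10 to the adult it did not exceed 1.5 CPM. From PND10 to PND14 it was found in 0% to 2.7% of cells at 50000 UMIs. The median was 1.4% over these 6 germ cell pools and 0% over 19 somatic pools of PND0 to the adult, which had 0% to 15.9%. The somatic pools span other days too, and the highest was PND1 replicate 2. Median depths were 219211 to 368934 UMIs in the germ cells and 58883 to 276078 in the somatic cells. Sp5 was at 6.8 to 15.9 CPM from PND0 to PND2 and 3.9 to 12.3 CPM from PND3 to PND8. It was at 2.0 to 7.0 CPM from PND10 to PND14 and at 0 to 0.73 CPM from PND30 on.

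Ascl2 was at its highest at PND8 and PND10 and close to 0 in most pools from PND30 on. It was at 42.6 and 39.5 CPM at PND0, where the gated cells of E18.5 had 32.5 and 42.9 CPM, at 69.9 and 104.7 CPM at PND8 and at 105.7 and 110 CPM at PND10. It was found in 86.6% of cells in the higher PND8 pool and in 88.8% in 1 PND10 pool, against 7.9% to 47.1% of somatic cells. At PND12 it was at 50.2 and 45.1 CPM and at PND14 at 53.8 and 26.5 CPM. From PND30 on it was at 0.08 to 0.49 CPM in 5 of 6 pools, and in the sixth, adult replicate 1, at 19.5 CPM and in 28.5% of cells. Tgif1 was at its lowest at PND8 and PND10. It was at 26.9 to 89.2 CPM from PND0 to PND2, and at PND4 at 29.6 and 86.1 CPM. At PND8 it was at 14.7 and 13.6 CPM and at PND10 at 14.02 and 14.2 CPM. The pools then lay apart, at 21.2 and 71.3 CPM at PND12 and 29.7 and 110.6 CPM at PND14, where the higher pool was above every later one. From PND30 on all 6 pools were at 61.7 to 105.9 CPM. Somatic cells after birth held Tgif1 at 42.8 to 244 CPM.

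With all 30 pools and 26061 genes in 1 edgeR fit, 2 of the 4 genes changed from PND0 to PND2 to PND3 to PND8, against 38.8% of all genes. Hesx1 was lower, with a log2 fold change of -1.97 ± 0.33 (adjusted p = 6.21e-05). Ascl2 was higher (0.92 ± 0.31, 0.0243). The Ascl2 call was lost when any 1 of 15 of the 30 pools was left out, PND2 replicate 2 most (adjusted p = 0.0941), and with RLE size factors (0.0543), DESeq2 (0.0921) or the earlier edgeR fit (0.0764). From PND3 to PND8 to PND10 to PND14, 2 genes were lower, Hesx1 (-2.50 ± 0.52, adjusted p = 0.00151) and Sp5 (-1.17 ± 0.25, 0.00232), against 16.9% of genes. Without PND14 replicate 2 the value for Hesx1 was -3.56, fitted to very few tags. Sp5 missed the threshold with the earlier edgeR fit (0.0526). From PND10 to PND14 to PND30 to the adult 3 genes changed, against 67.9%. Ascl2 (-6.12 ± 0.54, adjusted p = 1.03e-08) and Sp5 (-4.90 ± 0.56, 1.75e-07) were lower, both fitted values that depend on the prior count where pools are close to 0. Ascl2 was at -7.53 without adult replicate 1, and Sp5 at -5.96 without PND30 replicate 1 and -4.21 without PND30 replicate 2. Tgif1 was higher (1.39 ± 0.37, 0.00203) and kept the call without any 1 pool. With RLE size factors the log2 fold changes of the 4 genes in this last comparison moved up by a median of 0.56, and the 3 calls held. In a pool of many germ cell stages, more cells of a stage and more RNA per cell cannot be told apart.

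Some of the PND30 cells had been gated on how much DNA they held, as haploid spermatids (1N), cells such as spermatogonia and secondary spermatocytes (2N) and primary spermatocytes with replicated DNA (4N). Tgif1 was at its highest in the 4N cells of both pools. It was at 42.7 CPM in 1N, 55.7 in 2N and 79.7 CPM in 4N cells of replicate 1, and at 30.9, 69.1 and 104.5 CPM in replicate 2. The other 3 genes were at 0.77 CPM or less in each of these groups. In cells of PND14 gated in this way Tgif1 was at 20.5 CPM in 2N and 38.6 CPM in 4N cells of replicate 1, and at 124.2 CPM in the 2N cells of replicate 2, above the 4N cells of PND30. No test was made of these orders.

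**Figure D5:**
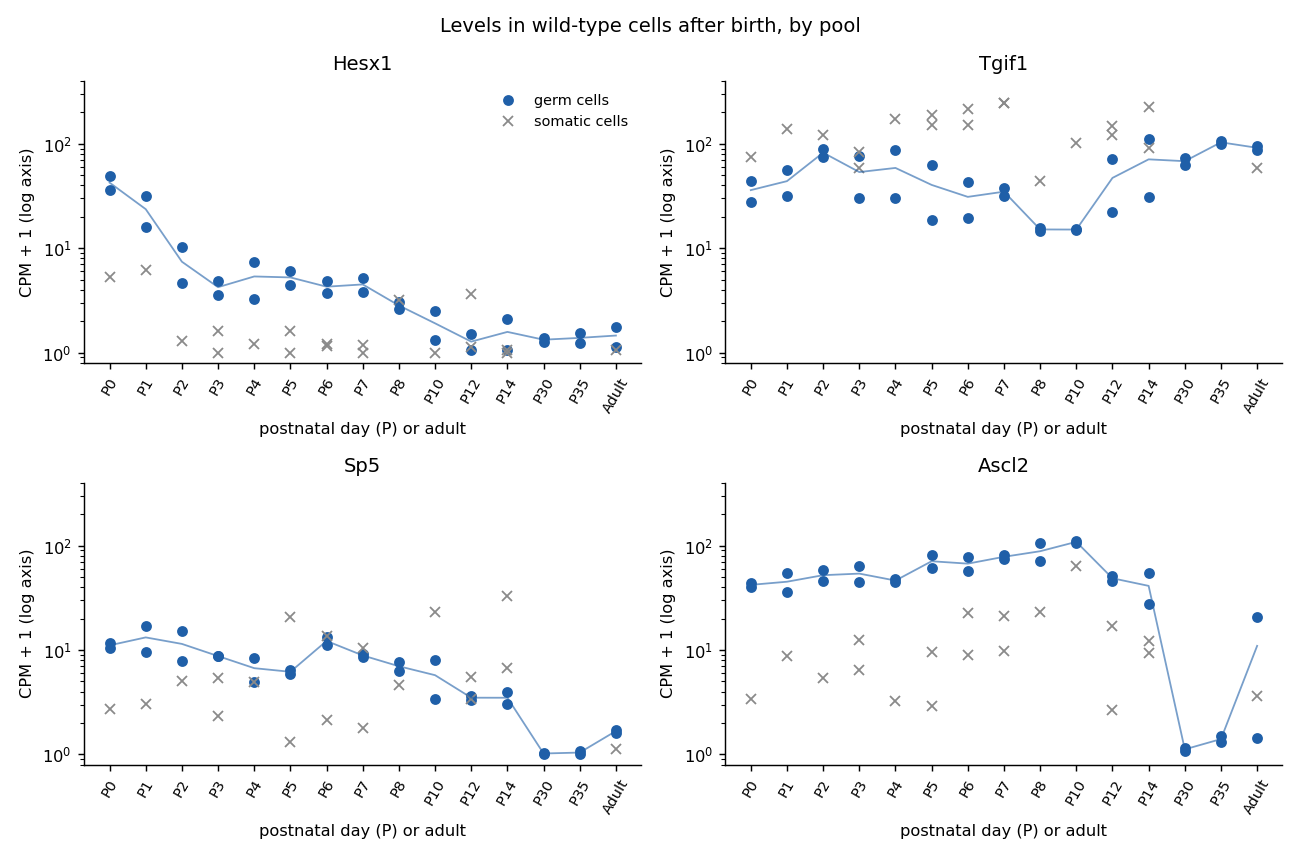
CPM + 1 (y axis, log scale) of each gene in wild-type cells by postnatal day, with 1 point per pool, circles for germ cells, crosses for somatic cells in pools of at least 10 cells, and lines through the germ cell means. Hesx1 falls from 35.1 and 48.1 CPM at PND0 to at most 1.5 CPM from PND10 on. Ascl2 peaks at PND8 and PND10 (69.9 to 110 CPM) and drops by PND30, and Tgif1 lies between 61.7 and 105.9 CPM from PND30 on.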

How the data were processed

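Single germ cells and other cells of the embryo, gonad and testis were captured and tagged by a modified STRT-seq protocol. In it an oligo(dT) primer carries a cell barcode and a UMI and the end of each transcript is read. Per the labels, reads were handled with CASAVA 1.8, STAR, featureCounts (Subread) and UMI-tools on mm10, and the authors deposited UMI counts, 1 per gene and cell, with a table of cells. The counts are raw and were not normalized. GEO's labels give a library code only, so time-point, genotype, gate, gonad piece and replicate were taken per cell from the deposited table of cells. The 147 libraries reuse the same 96 well barcodes, and 0 cells had counts identical to those of another cell.

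Cells with more than 2000 genes and 10000 to 1000000 UMIs were kept, 12692 of 13032, after the study's own filter. Per the study's methods, the fetal sort left out aggregates by light scatter and cells were moved one at a time by mouth pipette. No doublet caller was run on these plate libraries. After birth, 294 cells lay within 2-fold of the border between germ cell and somatic marker counts. UMIs were summed per pool, since cells are not replicates, and sums of at least 10 cells were tested by edgeR 4.0.16 (TMM, filterByExpr, quasi-likelihood fit of version 4, Benjamini-Hochberg over all genes, called below 0.05) in R 4.3.3. SE is the log2 fold change divided by the square root of F. Time-point was a factor in the wild-type fits, genotype was added to time-point, and distal was set against proximal with the pool as a block. Shares were compared by exact sign-flip permutation. Counts for E14.5 against E13.5 were simulated over 21327 genes, with the dispersion between pools fixed at 0.05 for every gene. Only genes of at least 10 CPM were changed. There edgeR recovered 26 of 100 genes changed 2-fold and 99 of 100 changed 4-fold, with 12 false calls. The spread of each real gene was not simulated, so these shares do not give the power for the 4 genes.

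The alternatives were DESeq2 1.42.0, RLE size factors, no filter, stricter marker ratios, other thinning depths, a replicate block and leaving out each pool. The earlier quasi-likelihood fit with estimateDisp was added after seeing the data. So were the comparisons of E12.5 with E11.5, E15.5 with E14.5 and E16.5 with E15.5. The comparisons of the genotypes within a time-point, and the interaction built on them, were added then too. Both edgeR fits had been run before the faster was kept. The members and gene lists were chosen with earlier results of these data known. Genes named beside the 4 members are the 3 most correlated with each and, from each list, up to 4 with the largest called change in a comparison, except Axin2, which was chosen after its values were seen. A gene that this rule also picked is not reported here. Protein sequences were not used here, and 32 cells of E11.5 gated on mVenus alone entered no comparison. The CPM levels and the shares carry no interval for counting error, and the depth of each pool is given as its UMI total. The SE of a log2 fold change comes from a fit to the counts, which includes that error.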

Additional observations from a re-analysis of the deposited data

Results flagged for a closer look

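The 4 genes also had tags in cells outside the comparisons, collected before E11.5. These values stood above those of BVSC germ cells at E9.5 and are given without a test. Among cells of E6.5 and E7.5 embryos taken at random, Hesx1 was highest in E7.5 replicate 3 at 120.7 CPM (0 to 39.7 CPM in the other 6 pools), and Sp5 was highest in the same pool at 190.9 CPM. Tgif1 was highest in E6.5 replicate 1 at 184.4 CPM and Ascl2 in the same pool at 26.48 CPM. Among BVSC cells of E8.5 to E10.5, Tgif1 was highest in E8.5 replicate 2 at 55.5 CPM, and Ascl2 in the same pool at 21.41 CPM. Hesx1 was at 12.74 CPM and Sp5 at 16.97 CPM in E10.5 replicate 3, where Hesx1 had no tags in the other 2 pools of E10.5 and Sp5 was at 0.28 and 0 CPM. In that pool 78.8% of cells carried more germ cell than somatic marker counts, against 93.5% and 97.9% in the other pools of E10.5. The part of this in the Hesx1 and Sp5 values was not tested.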

How the results depend on the processing

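The lower levels of all 4 genes at E15.5 and E16.5 than at E14.5 kept direction and call under every alternative run, and so did the higher Hesx1 and Ascl2 levels at E13.5 and the changes of Hesx1 after PND2 and of Tgif1, Ascl2 and Sp5 by PND30. With 1 pool left out, the remaining pool of a time-point is assumed to vary like the others. The cause of the changes below was not tested.

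Calls over all genes moved more than those of the members. DESeq2 called 540 genes for E12.5 against E11.5 where edgeR called 38, 2425 (836) for E13.5, 1309 (211) for E14.5 against E13.5, 4708 (7529) for E17.5 to E18.5, 75 (13) for the Helq null at E13.5, 178 (65) at E14.5, 609 (2) for the interaction and 6939 (4411) for PND10 to PND14. The earlier edgeR fit called 97, 318 and 1827 genes for E12.5, E14.5 and E15.5, each against the day before, 848 for E16.5 against E15.5, 4126 for E17.5 to E18.5, 154 for the null over E11.5 to E15.5, 39 at E14.5, 241 at E15.5 and 95 for the interaction. Only cells with more germ cell than somatic markers gave 69 for E12.5 and 352 for E14.5. No filter gave 27 for the null at E13.5, 229 for the interaction and 27 for distal against proximal. That last comparison gave 5 in wild-type pools alone, 0 with DESeq2 (1113 at an unadjusted p below 0.05) and 0 with the earlier fit (888).

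Leaving out 1 pool gave 0 to 58 genes for E12.5, 37 to 1044 for E13.5, 26 to 393 for E14.5, 201 to 3894 for E15.5, 3897 to 7868 for E15.5 to E16.5, 120 to 2715 for E16.5, 5181 to 7450 for E17.5 to E18.5, 289 to 1058 for the null, 4 to 29 for the null at E13.5, 20 to 400 at E14.5 and 29 to 2010 at E15.5, 0 to 1135 for the interaction, 6876 to 12332 for PND3 to PND8, 1864 to 6806 for PND10 to PND14, 15835 to 18627 for PND30 on, and 3 to 16 for distal against proximal. The shares, distal minus proximal, ran from -2.57 to -0.22 for Hesx1, -3.34 to -0.26 for Tgif1, -4.94 to -1.53 for Sp5 and -5.20 to -1.13 percentage points for Ascl2, which was 0.66 at 20000 UMIs and 1.52 unthinned.

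Values that changed sign had not been called. The Sp5 log2 fold change for the null over E11.5 to E15.5 was 0.0403 with DESeq2, 0.0068 with E18.5 added, 0.0699 with the earlier fit, 0.00014 with no filter and -0.21 to 0.12 without 1 pool. Sp5 from PND3 to PND8 was 0.17 with a marker ratio of 5, Hesx1 from PND30 on was 0.18 with DESeq2, 0.11 with RLE size factors and -0.89 to 0.60 without 1 pool, and Tgif1, distal against proximal, was -0.013 in wild-type pools. Without 1 pool, Ascl2 ran from -0.28 to 0.17 at E14.5 and -0.026 to 0.093 at E16.5, Hesx1 from -0.75 to 0.15 at E17.5 to E18.5, and Tgif1 from -0.37 to 0.35 at PND10 to PND14. In the null at E13.5 the ranges were -0.025 to 0.38 for Ascl2, -0.035 to 0.60 for Hesx1, -0.27 to 0.53 for Sp5 and -0.015 to 0.60 for Tgif1.

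RLE size factors turned the split of higher and lower calls from 3562 and 3778 to 4589 and 2699 for E15.5 to E16.5, from 1507 and 1515 to 1948 and 963 for E15.5, from 1129 and 1044 to 1378 and 650 for E16.5, from 4106 and 3423 to 5421 and 1919 for E17.5 to E18.5, from 391 and 634 to 281 and 743 for the null at E15.5, from 4547 and 5554 to 3514 and 6397 for PND3 to PND8 and from 9294 and 8413 to 11511 and 6410 for PND30 on.

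The replicate numbers were not used to pair the groups compared, although some pools of the same number deviated alike. Deviations of same-numbered wild-type and null pools of a time-point had correlations of -0.43 to -0.28, and among wild-type fetal pools 7 of 28 pairs of time-points were above 0.1, against 34 of the pairs after birth (median 0.022) and 3 of 3 among null pools (0.33 to 0.53). A replicate block gave 7348 genes for E15.5 to E16.5 and 483 for the null, within 1.5 times of the values without it in each of 15 comparisons, and changed no call of the 4 genes. Distal against proximal without the pool as a block gave 0 genes (502 at an unadjusted p below 0.05).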

Other observations

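The 32 cells of E11.5 gated on mVenus alone, which entered no comparison, held Hesx1 at 0.63 CPM, Tgif1 at 26.7 CPM, Sp5 at 1.6 CPM and Ascl2 at 12.98 CPM. Hesx1, Tgif1 and Sp5 were thus near the BVSC cells of the same day, and Ascl2 was at 0.57 and 1.41 CPM in those. Of these 32 cells, 87.5% carried more germ cell than somatic marker counts, and with 1 group of cells there is no replicate check.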
